A study of Mus musculus with 19 samples.

Results

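Oct4 DamID peaks with no partner in the other binding maps are described here: 1889 of the 3570 peaks in the Oct4 DamID list, or 52.9%. They were chosen by peak overlap, as the peaks that shared not even 1 bp with a Nup153 DamID peak, with an Oct4 ChIP-seq peak of control embryonic stem cells (ESC) or with an Oct4 ChIP-seq peak of Nup153 knockdown ESC (hairpin #2). The overlaps of these lists therefore define the peaks and are not results. Of the remaining 1681 Oct4 DamID peaks, 480 shared bases with an Oct4 ChIP peak and 1201 with a Nup153 DamID peak alone, and 2059 Nup153 DamID peaks touched no Oct4 DamID peak.

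The study mapped Oct4, the nuclear pore protein Nup153 and Polycomb proteins in mouse cells and measured polyadenylated RNA in the same kinds of cell. The Dam fusions of Oct4, Nup153 and green fluorescent protein (GFP) were expressed from a heat shock promoter in a viral vector in puromycin-selected E14 ESC, with 2 replicates each. The labels describe Oct4 DamID as a positive control and GFP DamID as a negative control. Knockdown ESC carried the Nup153 hairpin #2 or #4 and control ESC a non-target hairpin that the labels also call scramble, all delivered by lentivirus into ESC kept on irradiated mouse fibroblasts and selected with puromycin for at least 4 days. Neural progenitors (NeuP) were made by passing ESC through embryoid bodies, then adding Noggin and later the growth factors EGF and FGF2. They carried no hairpin, and the labels name no line for them. Ring1B peaks were given for hairpin #2, hairpin #4, NeuP and control ESC, Cbx7 peaks for control ESC, and RNA for 2 hairpin libraries, 2 NeuP libraries and 1 control library. The recovered RNA depth was between 24.3 M and 32.2 M fragments per library (M, mega).

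Oct4, encoded by Pou5f1, is a POU-family transcription factor that holds ESC in the pluripotent state, and it binds an octamer motif that is often joined to a Sox2 site. In DamID a bacterial adenine methylase fused to the protein marks GATC sites near which the protein has been, so the map records contacts accumulated over time in living cells and is limited to the spacing of GATC sites, whereas ChIP-seq records proteins crosslinked at the moment of fixation. Ring1B is the catalytic subunit of Polycomb repressive complex 1 (PRC1), which ubiquitinates histone H2A, and Cbx7 is the subunit that in ESC reads the methylated histone H3 left by Polycomb repressive complex 2 (PRC2).

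The Pou5f1 RNA fitted the cell labels. It stood at 476 and 501 FPKM in hairpins #2 and #4, 1.99 and 1.65 FPKM in NeuP, and 543 FPKM in control ESC, where FPKM counts fragments per kilobase of transcript, scaled to library size. Both hairpins were close to the control and NeuP had almost none. Nup153 stood at 20.9 and 17.4 FPKM in hairpins #2 and #4, 12.8 and 29.1 FPKM in NeuP, and 39.4 FPKM in control ESC, below the control in both hairpins, and the knockdown estimate on the log2(FPKM + 1) scale was -1.01 ± 0.55 (SE), which did not pass the test (limma, Benjamini-Hochberg adjusted p = 0.897). Taken singly, hairpins #2 and #4 differed from control by -0.88 and -1.14 on this scale. The NeuP replicates of Nup153 lay far apart. The fit pools the spread of the hairpin pair and of the NeuP pair, so this SE is not that of the hairpins alone. The summed level of the 32 pluripotency genes was 2712 and 2957 FPKM in hairpins #2 and #4, 315 and 285 FPKM in NeuP and 2622 FPKM in control ESC. The summed level of the 30 neural progenitor genes was 228 and 216 FPKM in the hairpins, 4774 and 4853 FPKM in NeuP and 190 FPKM in control ESC. Feeder fibroblasts could be in the ESC samples, and the 22 fibroblast genes summed to 341 and 303 FPKM in the hairpins, 278 and 276 FPKM in NeuP and 351 FPKM in control ESC. In each ESC library 11 of these 22 genes reached 1 FPKM. Their part in the results was not tested.

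Near the edge of the selection, the closest unshared neighbours lay 120 bp from a Nup153 DamID peak, 15 bp from a control Oct4 ChIP peak and 27 bp from a knockdown Oct4 ChIP peak. On the other side, the smallest shared stretches that removed a peak were 12, 30 and 3 bp for the same lists. Most of the 1889 peaks were far from the edge, with median gaps of 137 kb to the next Nup153 DamID peak and 330 and 295 kb to the next Oct4 ChIP peak of control and knockdown ESC. The Oct4 ChIP lists held 1462 peaks in control and 1598 in knockdown ESC. Their file headers give an approximate immunoprecipitation efficiency of 0.17% and 0.18%, against 2.25% to 4.29% for the Ring1B and Cbx7 lists. Absence from these lists does not show that Oct4 was not bound, and the part of ChIP strength in the selection was not tested.

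Sequence was examined where a peak covered a transcription start site (TSS), since there the data bear on a known promoter. The 115 peaks that spanned a TSS covered the starts of 134 genes, of which 72 had a promoter in RefSeq (build GRCm38.p6), in 91 windows running from 250 bases before to 50 after the start. Windows were matched to genes by name, a gene can have more than 1, and whether each window lay under the peak was not checked. The octamer, written ATGCAAAT or ATTTGCAT on the other strand, was present in 5 of these 91 windows (5.49%). For genes with a start covered by another class, it was in 4 of 46 windows (8.70%) for Oct4 DamID peaks with Oct4 ChIP. It was in 5 of 164 (3.05%) for those with Nup153 DamID alone and in 4 of 720 (0.556%) for Nup153 DamID peaks without Oct4 DamID. Of the windows of all genes, 570 of 32851 held it (1.74%). GATC, its own reverse complement, was present in 52.7% of the 91 windows and 48.0% of all windows, and their median GC content was 54.3% and 52.7%. With 5 windows these shares are a description, and a match does not show that Oct4 bound there. The sequences of D130040H23Rik and A630089N07Rik also share stretches beyond the octamer, so their matches may not be separate cases. The upstream 250 bases of the 5 genes are shown 5′ to 3′ on the coding strand because their promoter windows carry the octamer, with the octamer and any GATC in capitals.
Spp1: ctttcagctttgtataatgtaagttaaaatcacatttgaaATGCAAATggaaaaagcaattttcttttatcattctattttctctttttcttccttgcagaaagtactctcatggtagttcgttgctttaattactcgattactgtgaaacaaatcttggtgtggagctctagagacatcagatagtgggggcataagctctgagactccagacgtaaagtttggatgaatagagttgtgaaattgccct
Opa3: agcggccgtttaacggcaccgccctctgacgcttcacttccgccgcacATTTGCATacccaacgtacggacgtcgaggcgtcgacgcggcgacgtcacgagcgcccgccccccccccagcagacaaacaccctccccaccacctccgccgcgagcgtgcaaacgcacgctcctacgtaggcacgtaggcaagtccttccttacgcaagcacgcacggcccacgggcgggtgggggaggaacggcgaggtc
Nhsl1: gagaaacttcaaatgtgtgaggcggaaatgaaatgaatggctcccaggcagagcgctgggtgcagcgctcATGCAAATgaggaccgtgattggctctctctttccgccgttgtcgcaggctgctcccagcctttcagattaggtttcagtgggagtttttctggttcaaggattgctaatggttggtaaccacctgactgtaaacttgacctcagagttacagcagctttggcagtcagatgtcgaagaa
D130040H23Rik: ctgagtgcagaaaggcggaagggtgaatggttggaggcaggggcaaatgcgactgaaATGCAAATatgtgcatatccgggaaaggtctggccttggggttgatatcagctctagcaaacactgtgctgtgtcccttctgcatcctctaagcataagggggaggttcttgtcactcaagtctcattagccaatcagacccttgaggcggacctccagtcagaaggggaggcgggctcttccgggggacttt
A630089N07Rik: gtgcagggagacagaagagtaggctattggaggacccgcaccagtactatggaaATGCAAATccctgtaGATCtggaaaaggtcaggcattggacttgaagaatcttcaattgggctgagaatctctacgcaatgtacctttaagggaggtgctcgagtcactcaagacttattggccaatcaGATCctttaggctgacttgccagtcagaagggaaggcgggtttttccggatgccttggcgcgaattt

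Counted from the annotated start, the octamer began at position -210 in Spp1, -202 in Opa3, -180 in Nhsl1, -193 in D130040H23Rik and -196 in A630089N07Rik, and of the 5 sequences only A630089N07Rik held GATC, at 2 places. The genes differed in their RNA. Spp1, which encodes the secreted phosphoprotein osteopontin and is a known Oct4 target in early mouse embryos, stood at 165 and 186 FPKM in hairpins #2 and #4, 1.04 and 2.37 FPKM in NeuP, and 192 FPKM in control ESC. Its promoter peak (chr5:104863226-104865726, mm9) overlapped Ring1B in both hairpins and in control ESC and Cbx7 in control ESC, but not Ring1B in NeuP. Nhsl1, a relative of the actin-regulating NHS protein, stood at 5.33 and 5.34 FPKM in the hairpins, 22.6 and 17.7 FPKM in NeuP, and 3.10 FPKM in control ESC, the opposite order to Spp1. Opa3, which encodes a mitochondrial protein, stood at 5.72 and 6.24 FPKM in the hairpins, 8.99 and 13.9 FPKM in NeuP, and 3.76 FPKM in control ESC. Its peak overlapped Ring1B in NeuP alone among the Polycomb lists. The other two genes stayed at or under 2.53 FPKM in every library.

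The Oct4 DamID-only peaks lay mostly away from promoters. Of the 1889 peaks, 225 (11.9%, Wilson 95% interval 10.5 to 13.4) lay within 2 kb of a TSS, 825 (43.7%, 41.5 to 45.9) within a gene body and 839 (44.4%, 42.2 to 46.7) outside genes. Within 2 kb of a TSS lay 13.5% (10.8 to 16.9) of the Oct4 DamID peaks with Oct4 ChIP, 25.6% (23.3 to 28.2) of those with Nup153 DamID alone and 42.5% (40.4 to 44.7) of the Nup153 DamID peaks without Oct4 DamID. The share at promoters was thus close to that of the ChIP-supported peaks, whose interval overlaps it, and below both Nup153 classes. The gene body share was above those of the other classes, which were 31.2% (27.3 to 35.5) with ChIP, 31.4% (28.8 to 34.1) with Nup153 DamID alone and 25.7% (23.9 to 27.7) for Nup153 DamID without Oct4 DamID. These intervals cover counting error only, since each DamID list stands for 2 replicates and gives no spread between them.

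**Figure D1:**
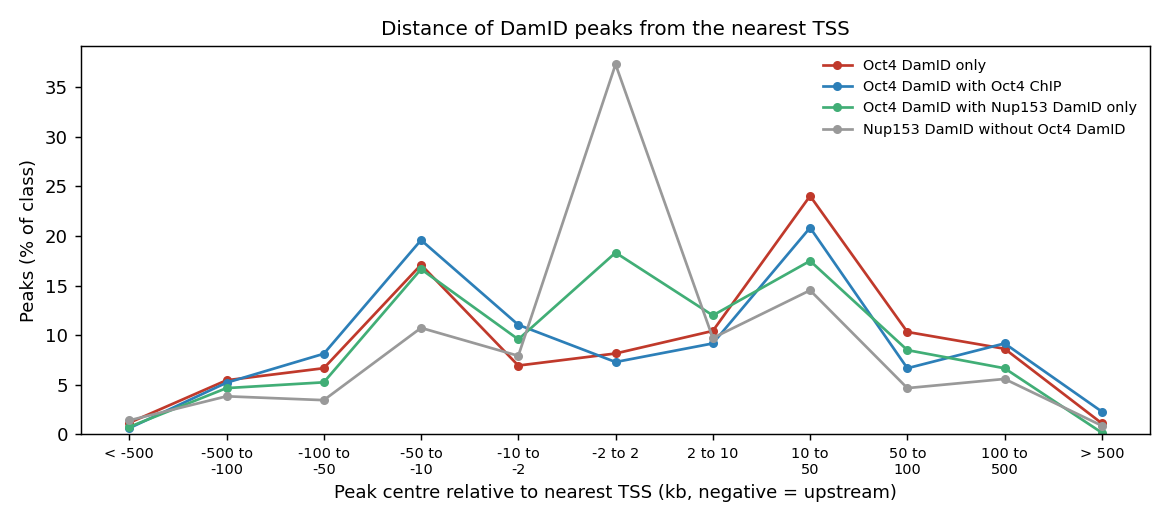
Share of peaks (y axis, % of each class) by distance of the peak centre from the nearest TSS (x axis, kb, negative values upstream) for the Oct4 DamID-only peaks and 3 other DamID classes. Most frequent among the Oct4 DamID-only peaks was a centre 10 to 50 kb downstream of a TSS, with 454 peaks, and 8.15% had their centre within 2 kb, whereas Nup153 DamID peaks without Oct4 DamID were most frequent at the TSS.

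The median distance from peak to TSS was 26.4 kb, against 24.3 kb for peaks with Oct4 ChIP, 14.6 kb for those with Nup153 DamID alone and 5.69 kb for Nup153 DamID peaks without Oct4 DamID. A distance over 50 kb was found for 612 peaks (32.4%), and 786 peaks (41.6%) lay upstream of their nearest gene. The smallest width in the list, 2501 bp, was that of 1398 peaks (74.0%), against 55.2% of the other Oct4 DamID peaks and 72.7% of the Nup153 DamID peaks without Oct4 DamID. The widest reached 7786 bp. Chromosome 8 carried 158 of the peaks (8.36%, 7.20 to 9.70), against 6.66% (5.57 to 7.96) of the other Oct4 DamID peaks and 4.76% of the genes in the RNA table. Chromosome X carried 23 (1.22%, 0.813 to 1.82), against 0.833% (0.497 to 1.39) of the other Oct4 DamID peaks and 4.37% of the genes. On both chromosomes the intervals of the 2 peak sets overlap. Other chromosomes also departed from their gene share: 12 with 5.35% of the peaks and 3.41% of the genes, 13 with 6.25% and 3.71%, and 7 with 4.87% and 9.03%.

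Some peaks lay in groups. A gap of at most 10 kb separated 150 peaks from another of their class, forming 71 groups, and 8 groups held 3 peaks. The groups of 3 lay at Ncoa7, a coactivator of nuclear receptors, at Tspan5, a membrane tetraspanin, at Shq1, an assembly factor of small nucleolar ribonucleoproteins, at Atf7ip, which protects the histone methyltransferase Setdb1, at Sntb2, a syntrophin, at Slc25a36, a mitochondrial carrier, at Nfyc with Mir30e and at a Mir466 and Mir669 locus on chromosome 2.

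Ring1B overlap of the Oct4 DamID-only peaks in ESC was lower than in the other Oct4 DamID classes. Counted at 1 bp or more, fewer of the peaks overlapped Ring1B in the knockdown and NeuP lists than in the control list. Ring1B overlapped 445 peaks (23.6%, 21.7 to 25.5) in hairpin #2, 459 (24.3%, 22.4 to 26.3) in hairpin #4, 117 (6.19%, 5.19 to 7.37) in NeuP and 607 (32.1%, 30.1 to 34.3) in control ESC, and Cbx7 overlapped 175 (9.26%, 8.04 to 10.7) in control ESC. The list sizes ran the other way for hairpin #2 and NeuP, with 15604 Ring1B peaks in hairpin #2, 12117 in hairpin #4, 14556 in NeuP and 11916 in control ESC. Library depth differed too, at 30.8, 9.95, 33.2 and 4.99 M tags in the same order. Per the file headers, the NeuP list was called against a control library from ESC. The Ring1B lists come from 1 library each, so a difference between them has no replicate check other than the 2 hairpins. The hairpins were similar in total, but near a TSS the shares were 26.7% (21.3 to 32.8) for #2 and 18.7% (14.1 to 24.3) for #4. In gene bodies they were 17.8% and 18.5%, and outside genes 28.4% and 31.5%. The part of depth in these differences was not tested.

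Among Oct4 DamID peaks with Oct4 ChIP, Ring1B overlapped 82.3% in hairpin #2, 82.5% in hairpin #4, 9.17% in NeuP and 89.4% (86.3 to 91.8) in control ESC, and Cbx7 47.1%. Among those with Nup153 DamID alone the shares were 38.4%, 35.2%, 12.7% and 52.0% (49.1 to 54.8), and 12.3% for Cbx7. The intervals of control Ring1B do not overlap between the 3 Oct4 DamID classes. For NeuP Ring1B the interval overlaps that of the peaks with ChIP (6.90 to 12.1), and for Cbx7 it meets that of the peaks with Nup153 DamID alone (10.6 to 14.3). Peaks of equal width kept the order: at 2501 bp, control Ring1B overlapped 28.6% of the Oct4 DamID-only peaks, 86.7% of those with ChIP and 43.9% of those with Nup153 DamID alone. Nup153 DamID peaks without Oct4 DamID had 26.8% (24.9 to 28.7) for control Ring1B, below the Oct4 DamID-only peaks, and 30.4% (28.4 to 32.4) for hairpin #2, above them.

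**Figure D2:**
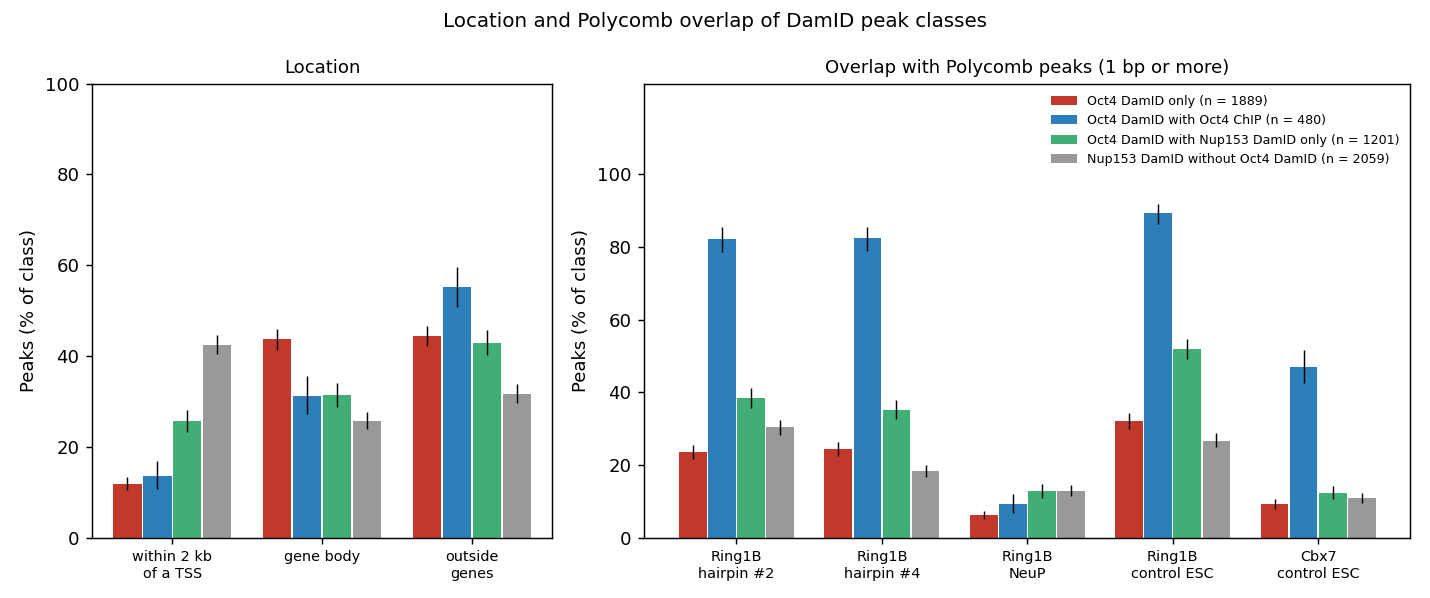
Share of peaks (y axis, % of each class, bars from 0) by location (left) and by overlap of at least 1 bp with each Ring1B or Cbx7 list (right), with Wilson 95% intervals as error bars. The Oct4 DamID-only peaks had the highest gene body share, 43.7%, and a control Ring1B share of 32.1%, far under the 89.4% of Oct4 DamID peaks with Oct4 ChIP.

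Ring1B at the Oct4 DamID-only peaks was only partly the same between ESC lists. Of the 607 peaks with control Ring1B, 260 (42.8%) also had it in both hairpins and 183 (30.1%) in neither, while 184 peaks had it in a hairpin but not in the control. Of the 175 Oct4 DamID-only peaks with Cbx7, 123 (70.3%, 63.1 to 76.6) also overlapped control Ring1B. NeuP Ring1B shared 41 peaks with control ESC and was found at 60 peaks without Ring1B in any ESC list. At 1011 peaks (53.5%, 51.3 to 55.8) there was neither Ring1B in any list nor Cbx7, against 24.4% (22.5 to 26.6) of the other Oct4 DamID peaks. Control Ring1B was at 29.8% (24.2 to 36.1) of the peaks near a TSS, 26.8% (23.9 to 29.9) of those in gene bodies and 38.0% (34.8 to 41.4) of those outside genes. NeuP Ring1B had another distribution, at 13.8% (9.88 to 18.9) near a TSS, 4.97% (3.68 to 6.67) in gene bodies and 5.36% (4.03 to 7.10) outside. The overlapped Polycomb peaks were a small part of their lists, 5.43% of control Ring1B peaks and 1.45% of Cbx7 peaks. The overlapped peaks had a median width of 631 bp for control Ring1B and 626 bp for Cbx7, against 501 bp in the rest of both lists. When only Ring1B and Cbx7 peaks of at least 1 kb were counted, the share fell to 4.66% for control Ring1B and 0.953% for Cbx7.

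The peaks had 1589 different nearest genes, and 353 of these (22.2%) were also nearest to another Oct4 DamID peak. The nearest genes were more often expressed in control ESC than the table as a whole: the median was 4.86 FPKM against 0.83 FPKM over the 24016 genes of the table, and 66.0% reached 1 FPKM against 48.7%. The other DamID classes shared this. Their medians were 5.89 FPKM with Oct4 ChIP, 5.93 FPKM with Nup153 DamID alone and 4.75 FPKM for Nup153 DamID without Oct4 DamID. In the same order 67.1%, 69.8% and 66.8% reached 1 FPKM. The nearest genes of the Oct4 DamID-only peaks were also longer than the table, with a median span of 33.5 kb against 13.7 kb. It was 29.3, 23.9 and 18.0 kb in the other classes, and a long gene has more room to hold a peak. Most genes had a single peak, but 220 were nearest to at least 2, 57 to at least 3 and 14 to at least 4.

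Genes with the most peaks included regulators of development. Etl4, an embryonic locus named from an enhancer trap, held 7 peaks in its body. Distances of named peaks are from the nearer edge to the TSS. Jarid2, a subunit of PRC2 that recruits the complex, had 6 peaks from 77.8 kb upstream to 111.3 kb downstream of its start. The peak 5.8 kb upstream (chr13:44816426-44820364, mm9) overlapped Ring1B in both hairpins and control ESC and Cbx7, whereas the other 5 overlapped none of these lists. Rbpj, the DNA-binding effector of Notch signalling, had 6 peaks, of which 1 overlapped Ring1B in hairpin #4, 1 in hairpin #2 and control ESC, and 4 none. The non-coding gene 1700016G22Rik and Nfib, a nuclear factor I gene of neural and lung development, had 5 each. Of the Nfib peaks, all in the gene body, 2 overlapped Ring1B in NeuP and none did in control ESC. Jarid2 stood at 41.4 and 45.2 FPKM in hairpins #2 and #4, 19.0 and 12.2 FPKM in NeuP, and 42.0 FPKM in control ESC. Etl4 stood at 15.1 and 17.6 FPKM in hairpins #2 and #4, 0.388 and 0.637 FPKM in NeuP, and 14.8 FPKM in control ESC. Rbpj stood at 21.8 and 23.3 FPKM in hairpins #2 and #4, 6.22 and 5.87 FPKM in NeuP, and 23.0 FPKM in control ESC. All 3 were lower in both NeuP libraries than in every ESC library. Nfib went the other way, at 66.3 and 66.0 FPKM in NeuP and 0.563 FPKM in control ESC. The RNA of 1700016G22Rik was at or under 0.158 FPKM in every library.

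Of the 32 genes of the pluripotency list, 12 were nearest to at least 1 Oct4 DamID-only peak, through 24 peaks: Sox2, Nanog, Klf5, Esrrb, Zfp42, Prdm14, Nr5a2, Dppa2, Dppa3, Dppa4, Mycn and Jarid2. That is 37.5% of the list, against 11.8% of the genes of all 12 lists and 6.81% of the table, and the list was drawn up with results of these data known. The other classes were nearest to as many of the 32 genes or nearly so: 13 for the 480 Oct4 DamID peaks with Oct4 ChIP, 10 for the 1201 with Nup153 DamID alone and 12 for the 2059 Nup153 DamID peaks without Oct4 DamID. Pou5f1 itself had none. Of the 12 genes, 9 also had an Oct4 DamID peak of another class nearby, and only Sox2, Dppa2 and Dppa4 had none. Of the 24 peaks, 5 overlapped Ring1B in hairpin #2, 4 in hairpin #4, 1 in NeuP and 7 (29.2%) in control ESC, and 2 overlapped Cbx7.

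The homeodomain factor gene Nanog had a peak 10.4 kb upstream of its start (chr6:122644622-122647122, mm9) with no Ring1B or Cbx7. Nanog stood at 335 and 373 FPKM in hairpins #2 and #4, 0.532 and 0.870 FPKM in NeuP, and 246 FPKM in control ESC. Both hairpins were above the control and NeuP was near 0. The NeuP difference in Nanog was -7.19 ± 0.24 on the log2(FPKM + 1) scale (SE), with an adjusted p of 0.00238 by limma and Benjamini-Hochberg. Dppa3, a maternal factor that protects DNA methylation in the zygote, lies at the same locus, and its peak 35.7 kb downstream of the start overlapped Ring1B in both hairpins and control ESC and Cbx7. Dppa3 stood at 32.7 and 34.6 FPKM in hairpins #2 and #4, 0.038 and 0 FPKM in NeuP, and 50.0 FPKM in control ESC, so that here both hairpins were below the control. The orphan nuclear receptor gene Esrrb held a peak in its body with Ring1B in control ESC alone, and stood at 132 and 135 FPKM in hairpins #2 and #4, 0.126 and 0.570 FPKM in NeuP, and 119 FPKM in control ESC. Zfp42, the zinc finger gene known as Rex1, had 2 peaks upstream and stood at 104 and 109 FPKM in hairpins #2 and #4, 0.277 and 0.252 FPKM in NeuP, and 76.6 FPKM in control ESC. In Esrrb and Zfp42, as in Nanog, NeuP and ESC values did not overlap.

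Prdm14, a factor that keeps ESC from the primed state, had 4 peaks, of which 3 overlapped Ring1B in control ESC and 1 of these in both hairpins. It stood at 13.7 and 16.3 FPKM in hairpins #2 and #4 and 11.6 FPKM in control ESC and is listed at 0 in both NeuP libraries. Dppa2 and Dppa4, neighbouring genes whose products act together on early embryonic genes, had 1 peak each with no Polycomb overlap and are also listed at 0 in NeuP. Dppa2 stood at 4.35 and 4.33 FPKM in hairpins #2 and #4 and 2.08 FPKM in control ESC, and Dppa4 at 24.3 and 21.9 FPKM in hairpins #2 and #4 and 18.2 FPKM in control ESC. Klf5, a Krüppel-like factor, had 3 peaks, all downstream, and stood at 18.2 and 19.2 FPKM in hairpins #2 and #4, 0.724 and 0.551 FPKM in NeuP, and 21.9 FPKM in control ESC. The proto-oncogene Mycn had 2 peaks upstream and stood at 32.0 and 34.3 FPKM in hairpins #2 and #4, 2.72 and 1.16 FPKM in NeuP, and 21.7 FPKM in control ESC. The nuclear receptor gene Nr5a2 held 1 peak in its body and stood at 11.3 and 13.1 FPKM in hairpins #2 and #4, 0.026 and 0.466 FPKM in NeuP, and 9.48 FPKM in control ESC. The hairpin values of Klf5 were below the control and those of Mycn and Nr5a2 above it.

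Sox2, the partner of Oct4 and a neural progenitor factor as well, stood apart. Its peak lay 14.0 kb downstream of the start, in the body of the overlapping non-coding gene Sox2ot (chr3:34562976-34565476, mm9), and it overlapped Ring1B in NeuP alone. Sox2 stood at 75.1 and 70.4 FPKM in hairpins #2 and #4, 110 and 84.2 FPKM in NeuP, and 49.9 FPKM in control ESC, highest in NeuP. Its NeuP difference, 0.93 ± 0.26 in log2 units (SE), missed the threshold (limma, Benjamini-Hochberg adjusted p = 0.0564), and Sox2 was called higher without either NeuP replicate and after quantile normalization. The other 11 of the 12 genes were called lower in NeuP, beside 27 lower and 1 higher of the whole list of 32. Without either hairpin library 8 of the 11 remained, and Nr5a2, Mycn and Jarid2 were lost. In the knockdown 9 of the 12 genes were higher in both hairpins and 2 lower in both, with a median log2 change of 0.34 against 0.28 for the whole list, and none was called.

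**Figure D3:**
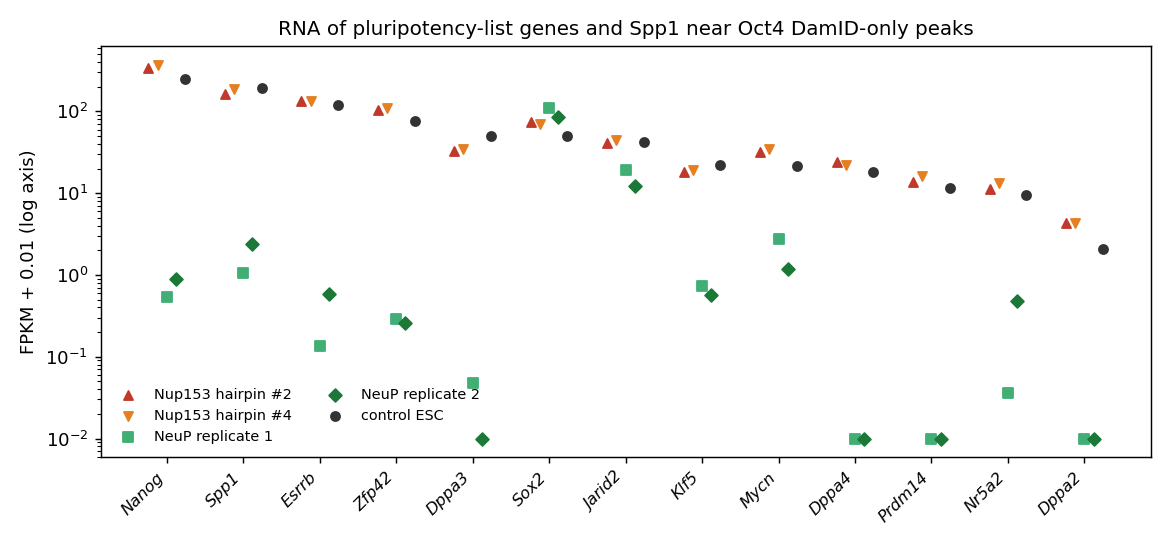
RNA level (y axis, FPKM plus 0.01, log axis) of the 12 pluripotency genes nearest to Oct4 DamID-only peaks and of Spp1, ordered by control level, with 1 point per library. NeuP points lie far under the ESC points for all genes except Sox2, which is highest in NeuP, and Jarid2, which is lower by a small step; values listed at 0 sit at 0.01.

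Polycomb subunit genes near the peaks were 5 of 31 (16.1%, against 6.81% of the table). The other classes had as many or nearly so: 4 with Oct4 ChIP, 5 with Nup153 DamID alone and 5 for Nup153 DamID without Oct4 DamID. Those classes had 450, 1044 and 1837 nearest genes in the same order, against 1589 here. Cbx7 had a peak 31.5 kb upstream of its start and stood at 45.2 and 49.1 FPKM in hairpins #2 and #4, 2.07 and 1.84 FPKM in NeuP, and 38.1 FPKM in control ESC. Mtf2, a PRC2 partner that guides it to CpG islands, held a peak in its body with Ring1B in both hairpins and control ESC and Cbx7, and stood at 113 and 124 FPKM in hairpins #2 and #4, 11.8 and 18.1 FPKM in NeuP, and 109 FPKM in control ESC. Both genes had NeuP values far under all ESC values. Rybp, a PRC1 subunit, had 3 peaks and stood at 10.1 and 9.89 FPKM in hairpins #2 and #4, 1.76 and 3.04 FPKM in NeuP, and 8.88 FPKM in control ESC. Ezh2, the methyltransferase of PRC2, stood at 73.7 and 72.9 FPKM in hairpins #2 and #4, 28.4 and 79.6 FPKM in NeuP, and 89.2 FPKM in control ESC, with the NeuP replicates far apart. Cbx7, Mtf2, Rybp and Jarid2 were called lower in NeuP (adjusted p = 0.00251, 0.00829, 0.0234 and 0.0385, limma with Benjamini-Hochberg adjustment), beside 9 lower and 4 higher of the whole list. Without either hairpin library only Cbx7 remained.

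Of 19 endoderm genes 5 had a peak (26.3%, against 6.81% of the table). Near Oct4 DamID peaks with Oct4 ChIP there were 0 of the 19, and near those with Nup153 DamID alone 4. Nup153 DamID peaks without Oct4 DamID had 1. In the same order these classes had 450, 1044 and 1837 nearest genes, against 1589 here. The counts are therefore not on one scale, and 0 in the smallest class sets no contrast. The 5 genes were Gata6, a master factor of primitive endoderm, Dab2, an endocytic adaptor, the basement membrane genes Col4a1 and Col4a2, which start back to back, and Lamb1. All 5 were higher in both hairpins than in control ESC, beside 14 of the 15 tested genes of the whole list and 55.0% of all genes tested, and none was called. Col4a1 stood at 206 and 266 FPKM in hairpins #2 and #4, 10.2 and 17.5 FPKM in NeuP, and 154 FPKM in control ESC. Lamb1 stood at 143 and 179 FPKM in hairpins #2 and #4, 20.9 and 25.2 FPKM in NeuP, and 120 FPKM in control ESC. The whole endoderm list summed to 567 and 735 FPKM in the hairpins, 70.0 and 74.9 FPKM in NeuP and 434 FPKM in control ESC, and 14 and 15 of its 19 genes reached 1 FPKM in the hairpins, 6 and 6 in NeuP and 11 in control ESC. The part of endoderm cells in these values was not tested. In NeuP Gata6, Col4a1, Col4a2 and Lamb1 were called lower, beside 8 lower and 1 higher of the 15, and of these 4 Gata6 alone remained without either hairpin library. Of 30 neural progenitor genes 1 had a peak (3.33%, against 6.81% of the table). This was the Notch target gene Hes1, at 22.1 and 22.4 FPKM in hairpins #2 and #4, 23.2 and 13.9 FPKM in NeuP, and 19.2 FPKM in control ESC, with 1 NeuP library above and 1 below the control. Single genes had a peak in the glia, mesoderm, trophoblast and nucleoporin lists (Slc1a3, Twist1, Tfap2a and Nup107) and 2 in the feeder fibroblast list (Col5a2 and Fn1). The neuron, formative epiblast and 2-cell-like lists had none. Tfap2a, a trophoblast and neural crest factor, had 3 peaks, of which 2 overlapped control Ring1B and Cbx7, and stood at 0.821 and 0.770 FPKM in hairpins #2 and #4, 3.91 and 5.73 FPKM in NeuP, and 0.414 FPKM in control ESC.

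Promoter peaks also touched highly expressed genes of general function. A TSS lay within 2 kb of a peak for 271 genes, and those with the highest control level included Hsp90aa1, Ccng1, Cstb, Spp1, Ybx1, Eif2s2, Anln, Psmd3 and Slc25a36, at 98.7 to 529 FPKM in control ESC. Hsp90aa1, the inducible cytosolic chaperone gene, stood at 411 and 431 FPKM in hairpins #2 and #4, 13.1 and 28.6 FPKM in NeuP, and 529 FPKM in control ESC. The protease inhibitor gene Cstb stood at 135 and 123 FPKM in hairpins #2 and #4, 18.8 and 12.6 FPKM in NeuP, and 228 FPKM in control ESC. Each of the genes just listed was lower in both NeuP libraries than in each ESC library, and all but Ybx1 and Anln were called lower by limma. Without either hairpin library Spp1 alone of these genes remained called. Ckb, the brain creatine kinase gene, had Ring1B in both hairpins and control ESC over its promoter peak and stood at 66.8 and 66.2 FPKM in hairpins #2 and #4, 610 and 175 FPKM in NeuP, and 67.6 FPKM in control ESC, so NeuP was higher but the replicates lay far apart.

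The knockdown comparison asked whether genes near these peaks respond to loss of Nup153. No nearest gene was called: 0 of the 1168 with at least 1 FPKM in some library passed an adjusted p of 0.05 in limma (smallest adjusted p = 0.825, Benjamini-Hochberg), against 0.0% of the 13750 genes tested in either direction. At an unadjusted p under 0.05, 72 were higher (6.16%, against 4.49% of all genes) and 11 lower (0.942%, against 1.43%). A gene was higher in both hairpins in 700 cases (59.9%, against 55.0%) and lower in both in 309 (26.5%, against 29.5%), and the median log2 change was 0.12 against 0.08. This lean was not particular to these peaks. Higher in both hairpins were 65.5% of genes near Oct4 DamID peaks with Oct4 ChIP and 59.9% with Nup153 DamID alone. The share was 55.1% near Nup153 DamID peaks without Oct4 DamID. In the same order the median log2 changes were 0.18, 0.12 and 0.09. The single control library has no replicate, and the labels do not say whether libraries came from separate cultures, so p-values measure only the spread between these samples. In the fit of all 5 libraries that spread pools the hairpin pair and the NeuP pair. A knockdown p-value from it therefore also depends on how far the NeuP replicates differ. When only the 3 ESC libraries were fitted, with the FPKM filter applied to those 3, 222 of 1096 nearest genes were called higher (20.3%, against 15.5% of 12436 genes) and 56 lower (5.11%, against 6.26%). With the same 3 libraries and the filter over all 5, none was called (smallest adjusted p = 0.0822 in limma).

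By size, counted on the log2(FPKM + 1) scale, which understates low genes, 9 nearest genes differed from control by 2-fold or more upward in each hairpin (0.771%, against 0.305% of all genes) and 2 downward (0.171%, against 0.16%). The upward share was 0.877% near Oct4 DamID peaks with Oct4 ChIP and 0.858% near those with Nup153 DamID alone. Near Nup153 DamID peaks without Oct4 DamID it was 0.426%. With a pseudocount of 0.1 in place of 1 the upward count near the Oct4 DamID-only peaks was 37. A low gene such as Cox4i2 or Dppa2 can therefore differ by 2-fold in FPKM and not be counted. Without hairpin #2, 19 were 2-fold higher and 5 lower in the other. L1td1, an RNA-binding protein gene of pluripotent cells derived from a LINE-1 element, had a peak 19.3 kb downstream and stood at 33.9 and 43.6 FPKM in hairpins #2 and #4 and 14.9 FPKM in control ESC. Its log2 change was 1.31 ± 0.23 (SE). Fbxo36, an F-box gene, held a peak with control Ring1B and stood at 11.6 and 15.5 FPKM in hairpins #2 and #4 and 4.41 FPKM in control ESC. The vitamin K-dependent anticoagulant gene Pros1 stood at 19.4 and 21.6 FPKM in hairpins #2 and #4 and 7.84 FPKM in control ESC, although its peak lay 356.4 kb downstream. In all 3 both hairpins lay above the control. The RNA of C330021F23Rik, whose start was covered by a peak with control Ring1B, stood at 5.59 and 5.11 FPKM in hairpins #2 and #4 and 1.71 FPKM in control ESC. Aspa, whose enzyme splits N-acetylaspartate, with Ring1B over its peak in both hairpins and control ESC, stood at 4.26 and 3.93 FPKM in hairpins #2 and #4 and 1.24 FPKM in control ESC. The mitochondrial membrane gene Mpv17l stood at 21.5 and 21.8 FPKM in hairpins #2 and #4 and 9.07 FPKM in control ESC. These 3 also had both hairpins above the control.

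On the lower side, Krtdap, a keratinocyte differentiation gene with a promoter peak, stood at 9.74 and 7.01 FPKM in hairpins #2 and #4 and 20.6 FPKM in control ESC. Derl3, which acts in the disposal of misfolded proteins, stood at 3.12 and 3.16 FPKM in hairpins #2 and #4 and 7.78 FPKM in control ESC. Cox4i2, a cytochrome c oxidase subunit gene, stood at 4.01 and 3.92 FPKM in hairpins #2 and #4 and 8.76 FPKM in control ESC, with a peak 16.8 kb downstream that overlapped all 3 ESC Ring1B lists and Cbx7. In all 3 genes both hairpins were below the control. Each of the named genes on either side had an adjusted p of at least 0.825 in limma (Benjamini-Hochberg).

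The NeuP comparison described RNA of genes near the peaks in another cell type, where Pou5f1 RNA was almost absent. The part of Oct4 in the differences was not tested. Of the 1168 nearest genes tested, 209 were called higher (17.9%, against 18.3% of all genes tested) and 341 lower (29.2%, against 24.9%). The median log2 change was -0.36 against -0.26 for all genes. The median of all genes was -0.06 after quantile normalization, a shift of more than 0.1, and 247 nearest genes were then called higher and 295 lower. The number of calls rested on the spread of few libraries: 159 were called without hairpin #2 and 157 without hairpin #4, and 922 and 992 without the first and the second NeuP replicate. In bulk RNA, fewer cells of a type and less RNA per cell cannot be told apart.

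These shares varied with the position of the peak. Of the 183 promoter genes tested, 30 were called higher (16.4%) and 66 lower (36.1%), with a median log2 change of -0.67. For nearest genes of peaks over 50 kb away, 89 of 351 were higher (25.4%) and 82 lower (23.4%), with a median of 0.03. The 87 genes near peaks with NeuP Ring1B had 27 higher (31.0%) and 17 lower (19.5%), and the 1101 near peaks without it had 185 higher (16.8%) and 329 lower (29.9%). For control Ring1B the shares lay closer together, with 17.9% higher and 33.1% lower among 408 genes with it and 17.8% and 28.2% among 848 without it. Genes near Oct4 DamID peaks with Oct4 ChIP were called lower in 36.8% of 342 cases and those with Nup153 DamID alone in 34.6% of 816. These classes share the control library and some genes, and the differences between them were not tested.

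**Figure D4:**
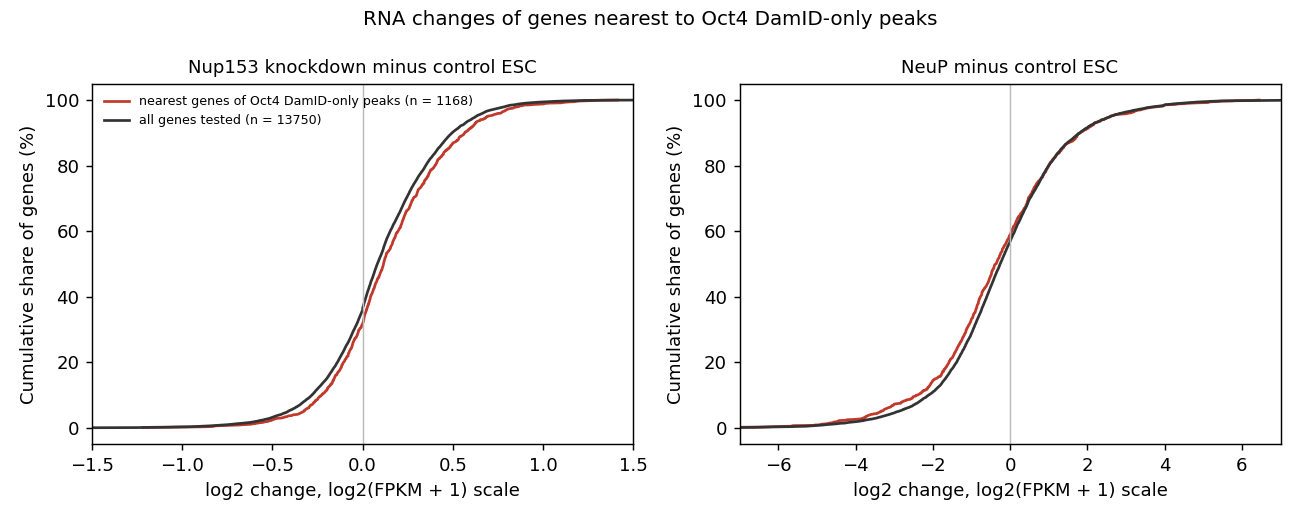
Cumulative share of genes (y axis, %) by log2 change on the log2(FPKM + 1) scale (x axis) for Nup153 knockdown against control ESC (left) and NeuP against control ESC (right), for the 1168 nearest genes of Oct4 DamID-only peaks and all 13750 genes tested. The knockdown curve of the nearest genes lies slightly to the right of that of all genes, with medians of 0.12 and 0.08, and the NeuP curve to the left among genes that were lower.

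Among the 8 largest falls in NeuP, 4 genes belonged to the pluripotency list: Nanog, Esrrb, Zfp42 and Dppa3. Cdh1, which encodes E-cadherin, had a peak 2.8 kb upstream with control Ring1B and another in its body. It stood at 134 and 148 FPKM in hairpins #2 and #4, 0.071 and 0.056 FPKM in NeuP, and 201 FPKM in control ESC. Its NeuP difference was -7.57 ± 0.19 in log2 units (SE), with an adjusted p of 0.00238 by limma and Benjamini-Hochberg. The ubiquitin ligase gene Trim6, with a promoter peak, stood at 56.3 and 55.4 FPKM in hairpins #2 and #4, 0.008 and 0.022 FPKM in NeuP, and 49.7 FPKM in control ESC. The phosphofructokinase gene Pfkp stood at 48.1 and 47.4 FPKM in hairpins #2 and #4, 0.349 and 0.349 FPKM in NeuP, and 65.5 FPKM in control ESC, although its peak lay 525.9 kb upstream. In each of the 3 genes the NeuP libraries were under 0.4 FPKM and all ESC libraries above 47 FPKM. The other 5 of the 8 largest falls were Nanog, Esrrb, Spp1, Zfp42 and Dppa3, described above, and the Spp1 difference was -6.21 ± 0.38 in log2 units (SE), with an adjusted p of 0.00295 by limma and Benjamini-Hochberg.

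Among the 8 largest rises in NeuP, Slc1a3 alone belonged to the glia list and none to the neural progenitor list. Of these lists only Slc1a3 and Hes1 were near a peak at all. Slc1a3, the glutamate transporter of radial glia and astrocytes, had a peak 109.5 kb upstream and stood at 2.75 and 4.12 FPKM in hairpins #2 and #4, 273 and 321 FPKM in NeuP, and 2.41 FPKM in control ESC. Its NeuP difference was 6.45 ± 0.29 in log2 units (SE), with an adjusted p of 0.00238 by limma and Benjamini-Hochberg. Nfib, with 5 peaks of which 2 overlapped NeuP Ring1B, stood at 0.614 and 0.693 FPKM in hairpins #2 and #4, 66.3 and 66.0 FPKM in NeuP, and 0.563 FPKM in control ESC. The NeuP libraries stood close together and far above ESC in both genes. The GABA transaminase gene Abat stood at 1.05 and 1.25 FPKM in hairpins #2 and #4, 140 and 47.4 FPKM in NeuP, and 0.531 FPKM in control ESC. Cdh13, an atypical cadherin gene, had 4 peaks in its body, of which 3 overlapped control Ring1B, and stood at 0.198 and 0.173 FPKM in hairpins #2 and #4, 65.8 and 21.7 FPKM in NeuP, and 0.087 FPKM in control ESC. In both genes the NeuP replicates differed by more than 2-fold, and the calls were lost without either hairpin library. Scrg1 and BC064078 were also among the largest rises, Scrg1 at 0 and 0.056 FPKM in hairpins #2 and #4, 78.3 and 40.2 FPKM in NeuP, and 0 FPKM in control ESC, and BC064078 at 0.230 and 0.047 FPKM in hairpins #2 and #4, 75.1 and 90.9 FPKM in NeuP, and 0.047 FPKM in control ESC.

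Xist, the RNA that silences an X chromosome, also had a peak in its body and was among the 8 largest rises. It stood at 0.034 and 0.158 FPKM in hairpins #2 and #4, 16.4 and 113 FPKM in NeuP, and 0.044 FPKM in control ESC, and the NeuP replicates differed severalfold. Xist and its antisense partner Tsix overlap, the labels call the libraries strand specific, and the sources used here do not say whether counting used strand. Its NeuP call (adjusted p = 0.0360, limma with Benjamini-Hochberg adjustment) was lost without either hairpin library.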

How the data were processed

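The authors used build mm9 and CASAVA 1.8.2, Bowtie2 2.1.0, STAR 2.2.0c, HOMER 4.6 and edgeR, per the submitters' processing notes, which are used here without the role of each tool. The RNA table was deposited as FPKM per transcript. Depth was recovered from the 1500 lowest FPKM values per library, of which 100.0% were whole reads within 0.1 of a read, so the FPKM hold whole fragments. The peak files were deposited as positions with a constant score, and per the file headers each ChIP list was called by HOMER with at least 4-fold enrichment over a control library. The sources used here do not say how DamID replicates and GFP DamID were combined.

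Peaks sharing at least 1 bp counted as overlapping, and each was assigned the gene of the RNA table with the nearest TSS. Shares carry Wilson 95% intervals. On log2(FPKM + 1), a scale that understates changes of low genes, RNA was tested by the trend method of limma 3.58.1 in R 4.3.3. The 13750 genes that reached 1 FPKM in any of the 5 libraries entered 1 fit of 3 groups with 2 residual and 1.74 prior degrees of freedom, two-sided, Benjamini-Hochberg over all genes, called under 0.05. The script was checked on simulated data. Python 3.11.15, pandas 2.3.3, numpy 2.4.6 and matplotlib 3.10.9 were used for the rest.

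The peaks, gene lists and tests were chosen with earlier results of these data known. Named genes were the 10 promoter genes with the highest control level, the 8 largest knockdown changes each way with one sign in both hairpins, the 8 largest called NeuP changes each way, list genes near a peak, the 5 genes with most peaks, the 8 highest promoter genes with Polycomb overlap, and Nup153 and Pou5f1. The text gives most of them, and some items are not reported here. Opa3, Nhsl1, D130040H23Rik and A630089N07Rik fall outside this rule and were chosen after their values were seen, for the octamer in their promoters. Alternatives varied the pseudocount, filter, normalization, libraries, TSS window and overlap rule.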

Additional observations from a re-analysis of the deposited data

How the results depend on the processing

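The 0 knockdown calls of limma became 12 with no filter on low values and 278 with the 3 ESC libraries and a filter over those 3, an alternative added after seeing the data, and were 0 in every other alternative run. The 2-fold counts of 9 higher and 2 lower became 37 higher at a pseudocount of 0.1, 0 and 0 at a pseudocount of 5, 2 and 1 over promoter genes, and 9 to 19 and 2 to 5 when libraries were left out in turn. The 550 NeuP calls, 209 higher and 341 lower, were 157 to 159, 22 to 22 and 135 to 137 without one or the other hairpin and 922 to 992, 383 to 385 and 537 to 609 without one or the other NeuP replicate, were 96, 30 and 66 over promoter genes, and 131 were higher for genes within 50 kb, where fewer genes were tested. The promoter share was 9.32% with a 1 kb window, 19.0% with 5 kb and 8.15% from the peak centre. The overlaps with Ring1B in hairpin #2, hairpin #4, NeuP and control ESC and with Cbx7 were 17.2%, 16.5%, 3.92%, 23.6% and 6.41% when 20% of the peak had to be covered, 26.0%, 26.8%, 7.89%, 35.2% and 11.3% within 1 kb, and 4.92%, 2.96%, 1.38%, 4.66% and 0.953% for Polycomb peaks of at least 1 kb. At the smallest peak width, also added after seeing the data, they were 21.5%, 20.9% and 28.6% for hairpin #2, hairpin #4 and control ESC. For Polycomb peaks of at least 1 kb hairpin #2 thus lay above control ESC, the reverse of the main order. The cause of these shifts was not tested where the construction does not show it. Of 560 named gene values under alternatives, 472 kept direction and side of the threshold, 53 lost their call, 33 gained one and 2 reversed: Hes1 in NeuP, at 0.11 after quantile normalization and from -0.45 to 0.26 without single NeuP replicates, beside -0.09. No paired analysis was possible because the control RNA is 1 library, so the groups compared share fewer than 2 replicate numbers.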
